A study of Mus musculus with 9 samples.

Results

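The dual specificity phosphatases described here are 8 mouse genes, Dusp1, Dusp2, Dusp4, Dusp5, Dusp6, Dusp10, Dusp14 and Dusp16, measured by RNA-seq in donor T cells sorted from spleen 7 days after haematopoietic stem cell transplantation. They were chosen by name, as the rows of the count table whose Ensembl identifiers carry these symbols in GENCODE M21, and they are 8 of the 29229 genes in the table. All 8 passed the filter on low counts and were tested.

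The study has 3 groups of 3 libraries. The allogeneic group holds T cells of C57BL/6 donors (CD45.2) recovered from CByJ.SJL(B6)-Ptprca/J recipients (H-2d, CD45.1), which had received 8 Gy of irradiation in a split dose and 1000000 donor T cells. The syngeneic group holds T cells of the same donor strain recovered from B6.SJL-Ptprca Pepcb/BoyJ recipients (H-2b, CD45.1), which had received 9.5 Gy and 8500000 donor T cells. Both kinds of recipient also received 5000000 T-cell-depleted marrow cells, and each transplant library pooled the cells of 2 to 4 recipients. The naive group holds T cells of healthy C57BL/6 mice that were not transplanted. All animals were female, and donors and recipients were 8 to 12 weeks old. Cells were sorted as live CD3+ CD45.2+ cells, and marrow-derived donor cells of the transplant recipients carry CD45.2 too. One characteristic gives the strain of the syngeneic recipients for every library, naive ones included, so groups were taken from the transplant label and the title. Recipient strain, irradiation and T-cell dose all differ between the allogeneic and syngeneic groups, so their parts cannot be told apart. The labels do not say whether the naive libraries came from separate animals, so p-values measure only the spread between these samples, which may be technical.

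Libraries held 103953932 to 176678189 counts. The 8 T-cell markers fixed for the label check were all detected and summed to 3217 to 3503 counts per 1000000 counts (CPM) in the allogeneic, 2598 to 3235 CPM in the syngeneic and 3617 to 3959 CPM in the naive libraries. Markers of other cells moved with the groups. The 10 neutrophil markers summed to 620 to 1113 CPM in the allogeneic and 415 to 1385 CPM in the syngeneic libraries, against 4.75 to 9.14 CPM in the naive libraries. The 11 erythroid markers summed to 20.3 to 66.1 CPM in the allogeneic and 2225 to 5707 CPM in the syngeneic libraries, against 3.10 to 3.59 CPM in the naive libraries. The 11 macrophage and monocyte markers summed to 49.1 to 86.0, 49.9 to 192 and 3.21 to 4.21 CPM in the allogeneic, syngeneic and naive libraries, and Fcgr1 was at 0 in the naive ones. Other sums were highest in the allogeneic libraries. The 7 dendritic cell markers summed to 146 to 228 CPM in the allogeneic, 14.6 to 33.8 CPM in the syngeneic and 3.33 to 5.08 CPM in the naive libraries, of which Itgax alone averaged 197, 13.2 and 2.23 CPM, while Cd209a was at 0 in the allogeneic and Clec9a in the naive libraries. The 6 NK cell markers summed to 29.6 to 37.0, 6.83 to 12.1 and 9.66 to 13.9 CPM, with Klra8 at 0 in the allogeneic libraries, and the 5 plasma cell markers to 112 to 154, 50.5 to 86.2 and 41.6 to 46.5 CPM. In the edgeR test below, 1 of the 6 tested dendritic cell markers was higher and 5 were lower in allogeneic than in syngeneic cells. Of 11 macrophage and monocyte markers 1 was higher and 8 were lower, with a median log2 fold change of -2.71. Of 6 tested NK cell markers 2 were higher and 3 lower, and of 5 plasma cell markers 1 was higher and 0 lower. Over all tested genes 24.3% were higher and 20.7% lower. The 8 B cell markers summed to 11.9 to 20.9 CPM and the 7 platelet markers to 2.00 to 7.95 CPM over all libraries. Their part in the results below was not tested.

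Mitogen-activated protein kinases (MAPKs) are switched on by phosphorylation of a threonine and a tyrosine in the activation loop, and dual specificity phosphatases remove both phosphates. In T cells the MAPKs ERK, JNK and p38 act downstream of the antigen receptor and cytokine receptors. Several of the phosphatases are themselves transcribed when a MAPK is active, which makes their transcripts part of a negative feedback loop. The nuclear inducible enzymes are Dusp1, Dusp2, Dusp4 and Dusp5. Dusp6 is a cytoplasmic phosphatase with a preference for ERK, Dusp10 and Dusp16 prefer JNK and p38, and Dusp14 is a small atypical member without the MAPK-binding domain of the others.

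The 8 genes did not move as one group. Dusp4, Dusp5, Dusp14 and Dusp16 were highest in allogeneic cells, by 1.66 to 4.76 fold over syngeneic cells and 1.84 to 7.86 fold over naive cells. Dusp1 and Dusp2 were set apart by the syngeneic cells instead: Dusp1 was 2.15 fold higher and Dusp2 2.06 fold lower in syngeneic than in naive cells, while neither passed the test between allogeneic and naive cells. Dusp6 passed no test, and Dusp10 passed the test only between allogeneic and naive cells, where it fell.

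Promoter sequences of 7 of the 8 genes were found in RefSeq (GRCm38.p6, 250 bases before to 50 bases after the annotated start), and Dusp4 had no entry. A total of 7 motifs were searched on both strands: the cyclic AMP response element (CRE, TGACGTCA), the AP-1 site (TGANTCA), the E-box (CACGTG), the serum response factor site or CArG box, an NF-kappaB site (GGG, any 5 bases, then CC), the ETS site (CCGGAA) and the TATA box (TATAAA). The promoters of the 3 nuclear phosphatases with the highest levels per length are shown for the motif marked in each. Capitals mark the CRE of Dusp1 at chr17:26508423-26508722 (minus strand), the E-box of Dusp2 at chr2:127335909-127336208 (plus strand) and the neighbouring CArG boxes of Dusp5 at chr19:53528895-53529194 (plus strand), all written 5′ to 3′ on the strand of the gene.
Dusp1: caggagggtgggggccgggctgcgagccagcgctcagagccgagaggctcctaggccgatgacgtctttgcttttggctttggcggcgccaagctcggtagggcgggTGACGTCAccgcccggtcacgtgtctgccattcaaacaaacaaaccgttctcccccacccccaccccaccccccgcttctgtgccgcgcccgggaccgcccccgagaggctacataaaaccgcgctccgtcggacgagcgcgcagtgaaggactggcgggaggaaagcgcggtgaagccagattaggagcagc
Dusp2: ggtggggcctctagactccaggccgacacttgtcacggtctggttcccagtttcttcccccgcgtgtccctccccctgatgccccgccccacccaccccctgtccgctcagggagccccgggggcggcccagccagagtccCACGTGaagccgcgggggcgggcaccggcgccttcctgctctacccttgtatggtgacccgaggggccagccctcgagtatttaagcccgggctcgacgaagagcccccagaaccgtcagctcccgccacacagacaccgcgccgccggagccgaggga
Dusp5: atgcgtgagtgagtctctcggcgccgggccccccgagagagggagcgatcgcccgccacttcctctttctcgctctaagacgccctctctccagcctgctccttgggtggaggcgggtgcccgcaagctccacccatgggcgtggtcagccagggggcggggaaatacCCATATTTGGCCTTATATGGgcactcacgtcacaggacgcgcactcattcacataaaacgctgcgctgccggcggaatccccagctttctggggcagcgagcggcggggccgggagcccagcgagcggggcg

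The CRE of Dusp1 begins 143 bases before the RefSeq start, and it was found in 1 of the 7 promoters and in 1.79% of the 32851 promoters of the RefSeq table. This promoter lies inside the GENCODE M21 span of Dusp1 (26505590 to 26562128, minus strand), whose outermost start is thus another one. Levels of Dusp1 per kb use the 3311 merged exon bases of that longer span. The CArG boxes of Dusp5 begin 82 and 72 bases before the start, and this motif was found in 1 of the 7 and in 1.63% of all promoters. The E-box of Dusp2 lies 109 bases before the start, and Dusp1 holds another 126 bases before its own start, so it was found in 2 of the 7 and in 7.15% of all promoters. The ETS site was found in 1 of the 7, Dusp14, and in 14.9% of all promoters. The NF-kappaB site was found in 6 of the 7 and in 50.8% of all promoters, and the AP-1 and TATA letters in 0 of the 7 against 7.81% and 13.6% of all promoters. A match describes these letters only.

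Differences were tested with edgeR's quasi-likelihood test in 1 fit of all 9 libraries, with p-values adjusted by Benjamini-Hochberg over the 19609 genes tested, and a gene was called at an adjusted p under 0.05. The 3 comparisons share libraries, so their values are given side by side. Between allogeneic and syngeneic cells 6 of the 8 genes were called, 5 higher and 1 lower, where 45.0% of all tested genes were called, 24.3% higher and 20.7% lower. Between allogeneic and naive cells 5 of the 8 were called, 4 higher and 1 lower, where 57.7% of all tested genes were called, 31.8% higher and 25.9% lower. Between syngeneic and naive cells 4 of the 8 were called, 3 higher and 1 lower, where 41.9% of all tested genes were called, 22.4% higher and 19.5% lower. The counts for the comparisons with naive cells were thus near the share for all genes. The ranges of the groups did not overlap for 7, 6 and 5 of the 8 genes in these comparisons, where the same held for 52.7%, 65.1% and 56.5% of all tested genes. The median log2 fold changes of the 8 genes were 0.97, 0.52 and 0.40 in these comparisons, where those of all tested genes were -0.02, -0.01 and 0.01. Since these are bulk samples, fewer cells of a type and less RNA per cell cannot be told apart.

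**Figure D1:**
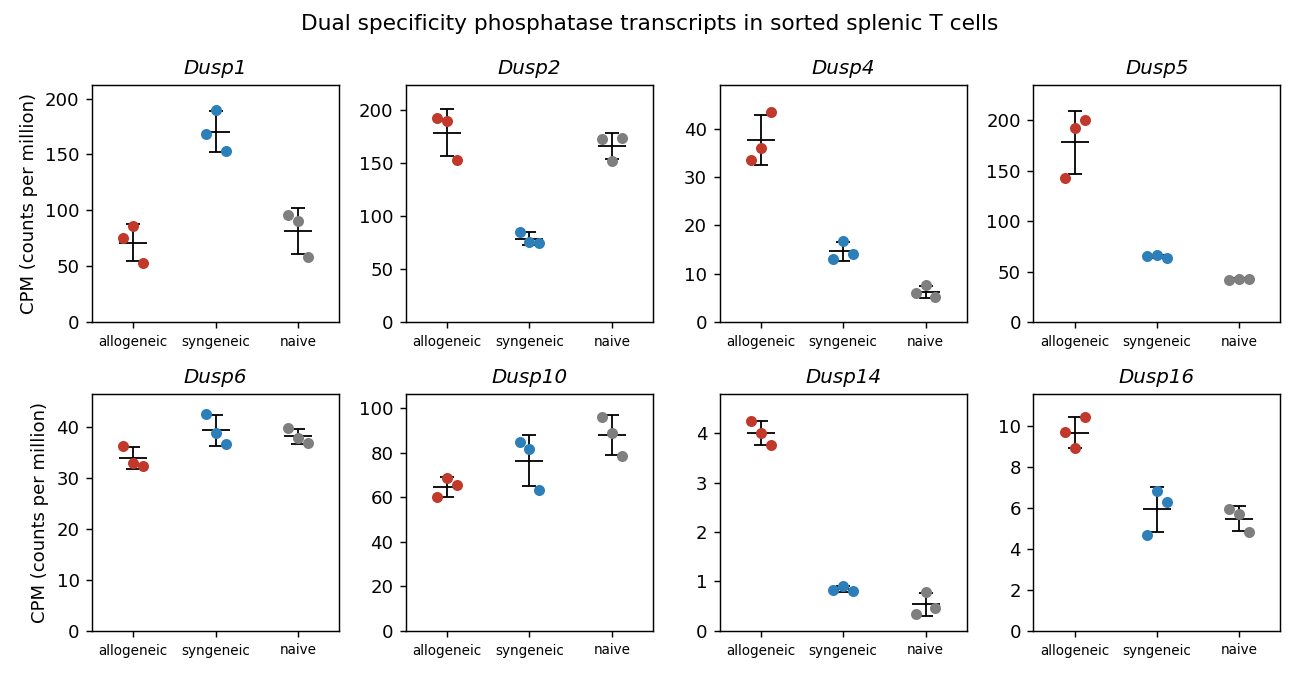
CPM of the 8 phosphatase genes in each library, with bars at the mean and whiskers of 1 SD over 3 libraries; allogeneic libraries are red, syngeneic blue and naive grey, and each panel has its own axis from 0. Dusp4, Dusp5, Dusp14 and Dusp16 have all 3 allogeneic libraries above the other 6, Dusp1 has all 3 syngeneic libraries above the other 6, and Dusp2 has all 3 syngeneic libraries below the other 6.

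Dusp1 (ENSMUSG00000024190, chromosome 17, 26505590 to 26562128, minus strand, GRCm38) encodes a nuclear phosphatase of p38, JNK and ERK and is an immediate-early gene; 11 of its exon bases overlap Ergic1 on the other strand. It had 75.0, 85.8 and 52.8 CPM in the allogeneic libraries, 168, 189.6 and 153 CPM in the syngeneic libraries and 95.9, 90.4 and 58.0 CPM in the naive libraries. Every syngeneic library lay above every other library, and the allogeneic and naive ranges overlapped. The log2 fold change was -1.23 ± 0.21 (SE) between allogeneic and syngeneic cells (edgeR adjusted p = 0.00062) and 1.11 ± 0.21 between syngeneic and naive cells (edgeR adjusted p = 0.00129). Between allogeneic and naive cells it was -0.13 ± 0.20 (edgeR adjusted p = 0.607), a value whose sign turned without naive library 1 (0.016) or without allogeneic library 3 (0.00207).

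Fos, an immediate-early gene of the AP-1 family that MAPKs induce, had its highest levels in the same libraries as Dusp1. It had 35.9, 37.6 and 30.3 CPM in the allogeneic libraries, 189, 226 and 158 CPM in the syngeneic libraries and 65.8, 55.8 and 28.1 CPM in the naive libraries. Within each of the 3 groups the libraries fell in the same order for Dusp1 and for Fos, a relation picked out after the values were seen. Fos fell by 2.44 ± 0.26 on the log2 scale between allogeneic and syngeneic cells (edgeR adjusted p = 2.39e-05). The level of Dusp1 per kb of exon over that of Fos was 1.45 ± 0.194 in allogeneic, 0.639 ± 0.0481 in syngeneic and 1.22 ± 0.221 in naive cells (SD, n = 3 each). The syngeneic libraries had erythroid sums of 2225, 5707 and 4888 CPM and 168, 189.6 and 153 CPM of Dusp1. Syngeneic library 2 had the highest of both, but library 1 had the lowest erythroid sum and library 3 the lowest Dusp1. The part of erythroid cells in the Dusp1 result was not tested.

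Dusp2 (ENSMUSG00000027368, chromosome 2, 127336159 to 127338376, plus strand) encodes a nuclear phosphatase first known from activated T cells, with activity on ERK and p38. It had 192, 189.9 and 153 CPM in the allogeneic libraries, 85.4, 75.4 and 74.9 CPM in the syngeneic libraries and 173, 152 and 174 CPM in the naive libraries. The syngeneic libraries were the 3 lowest, and the allogeneic and naive ranges overlapped. In edgeR the log2 fold change was 1.20 ± 0.14 between allogeneic and syngeneic cells (edgeR adjusted p = 4.54e-05), 0.16 ± 0.14 between allogeneic and naive cells (edgeR adjusted p = 0.329) and -1.04 ± 0.14 between syngeneic and naive cells (edgeR adjusted p = 0.000132).

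Cd4, the co-receptor of helper T cells, was among the 2 genes with the pattern most like that of Dusp2. It had 446, 414 and 410.1 CPM in the allogeneic libraries, 223, 199.6 and 171 CPM in the syngeneic libraries and 446, 434 and 469 CPM in the naive libraries. The ratio of Dusp2 to Cd4, each per kb of exon, averaged 0.847 ± 0.0882 in allogeneic, 0.803 ± 0.0661 in syngeneic and 0.743 ± 0.0385 in naive cells (SD, n = 3 each) and spanned 0.703 to 0.923 over the 9 libraries. Cd8a, the co-receptor of cytotoxic T cells, averaged 393, 585 and 426 CPM in allogeneic, syngeneic and naive cells. Cd8b1, another of the fixed T-cell markers, averaged 461, 498 and 457 CPM in the same groups and was called in no comparison. Of the 8 fixed T-cell markers 6 were lower and 1 higher in syngeneic than in naive cells, against 19.5% and 22.4% of all tested genes. Cd3d, Cd3e, Cd3g, Trac and Cd5 had log2 fold changes of -0.66, -0.64, -0.62, -0.49 and -0.75 there, beside -1.14 for Cd4. The part of these markers' general fall and of the CD4 and CD8 make-up in the Dusp2 difference was not tested. Egr2 and Egr3, transcription factors induced by antigen receptor signalling, had the same shape: Egr2 averaged 25.0 ± 3.05 CPM in allogeneic, 10.7 ± 0.443 CPM in syngeneic and 26.2 ± 2.78 CPM in naive cells, and Egr3 20.2 ± 2.43, 8.50 ± 0.652 and 21.8 ± 2.45 CPM (SD, n = 3 each).

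Dusp1 and Dusp2 moved against each other in the syngeneic cells. The ratio of Dusp2 to Dusp1, per kb of exon, was 4.24, 3.66 and 4.79 in the allogeneic libraries, 0.841, 0.657 and 0.807 in the syngeneic libraries and 2.98, 2.77 and 4.95 in the naive libraries. It was thus below 1 in the 3 syngeneic libraries and above it in the other 6. This ratio was chosen after the values were seen and is a description.

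Dusp5 (ENSMUSG00000034765, chromosome 19, 53529109 to 53542431, plus strand) encodes a nuclear phosphatase selective for ERK. It had 142, 192 and 199.6 CPM in the allogeneic libraries, 65.5, 66.4 and 63.1 CPM in the syngeneic libraries and 41.7, 43.0 and 42.9 CPM in the naive libraries. The groups did not overlap in any comparison, and the allogeneic libraries were the most spread. The log2 fold change was 1.46 ± 0.09 between allogeneic and syngeneic cells (edgeR adjusted p = 4.13e-07), 2.11 ± 0.09 between allogeneic and naive cells (edgeR adjusted p = 9.31e-09) and 0.65 ± 0.09 between syngeneic and naive cells (edgeR adjusted p = 0.000167). An antisense gene, AC137853.2, overlaps 547 exon bases of Dusp5 in the annotation and has no row in the count table used here. Whether counting used strand is unknown here, so reads of this antisense gene could not be told from those of Dusp5.

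Dusp4 (ENSMUSG00000031530, chromosome 8, 34807297 to 34819894, plus strand) encodes a nuclear phosphatase of ERK and JNK. It had 33.5, 36.0 and 43.5 CPM in the allogeneic libraries, 13.05, 16.85 and 14.00 CPM in the syngeneic libraries and 5.99, 7.67 and 5.26 CPM in the naive libraries. The 3 groups were again apart, in the order of Dusp5. In edgeR the log2 fold change was 1.38 ± 0.13 between allogeneic and syngeneic cells (edgeR adjusted p = 1.14e-05), 2.63 ± 0.14 between allogeneic and naive cells (edgeR adjusted p = 3.75e-08) and 1.25 ± 0.14 between syngeneic and naive cells (edgeR adjusted p = 2.69e-05).

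Dusp14 (ENSMUSG00000018648, chromosome 11, 84048041 to 84069261, minus strand), the atypical member, is known as a negative regulator of T-cell receptor signalling. It had the lowest counts of the 8 genes, 47 to 706 per library. Its levels were 4.25, 4.00 and 3.77 CPM in the allogeneic libraries, 0.829, 0.918 and 0.812 CPM in the syngeneic libraries and 0.340, 0.794 and 0.471 CPM in the naive libraries. The 3 allogeneic libraries were the highest, and naive library 2 came close to the syngeneic libraries. The log2 fold change was 2.25 ± 0.28 between allogeneic and syngeneic cells (edgeR adjusted p = 6.88e-05) and 2.98 ± 0.29 between allogeneic and naive cells (edgeR adjusted p = 5.05e-06). Between syngeneic and naive cells it was 0.72 ± 0.28 (edgeR adjusted p = 0.0586); without naive library 2 it was 1.09 (edgeR adjusted p = 0.00716).

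Dusp16 (ENSMUSG00000030203, chromosome 6, 134715468 to 134792625, minus strand) encodes a phosphatase of JNK and p38. It had 9.73, 8.94 and 10.4 CPM in the allogeneic libraries, 4.70, 6.83 and 6.30 CPM in the syngeneic libraries and 5.96, 5.70 and 4.83 CPM in the naive libraries. The allogeneic libraries were the 3 highest, and the syngeneic and naive ranges overlapped. In edgeR the log2 fold change was 0.73 ± 0.15 between allogeneic and syngeneic cells (edgeR adjusted p = 0.00243), 0.88 ± 0.15 between allogeneic and naive cells (edgeR adjusted p = 0.00046) and 0.14 ± 0.15 between syngeneic and naive cells (edgeR adjusted p = 0.492).

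Dusp10 (ENSMUSG00000039384, chromosome 1, 184013302 to 184075636, plus strand), the other JNK and p38 phosphatase, went the other way. It had 60.0, 68.6 and 65.4 CPM in the allogeneic libraries, 84.6, 81.7 and 63.2 CPM in the syngeneic libraries and 96.2, 89.0 and 78.4 CPM in the naive libraries. Syngeneic library 3 lay within the allogeneic range and the other 2 lay above it. With CPM over totals without the ribosomal loci named below, syngeneic library 3 had 78.4 CPM, above the allogeneic 71.0 to 75.4 CPM. The log2 fold change was -0.39 ± 0.12 between allogeneic and naive cells (edgeR adjusted p = 0.0191), and without naive library 1 it was -0.31 (edgeR adjusted p = 0.0874). Between allogeneic and syngeneic cells it was -0.24 ± 0.12 (edgeR adjusted p = 0.145), and without syngeneic library 3 it was -0.37 (edgeR adjusted p = 0.0178). Between syngeneic and naive cells it was -0.15 ± 0.12 (edgeR adjusted p = 0.355).

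Dusp6 (ENSMUSG00000019960, chromosome 10, 99263231 to 99267489, plus strand), the cytoplasmic ERK phosphatase, varied least. It had 36.4, 33.0 and 32.4 CPM in the allogeneic libraries, 42.6, 38.9 and 36.7 CPM in the syngeneic libraries and 39.9, 38.0 and 37.0 CPM in the naive libraries. All 9 values lay between 32.4 and 42.6 CPM, with the allogeneic libraries the 3 lowest. Over totals without the ribosomal loci named below, allogeneic library 1 had 44.0 CPM, above the 43.9 CPM of naive library 3. The log2 fold changes were -0.20 ± 0.12, -0.11 ± 0.12 and 0.08 ± 0.12 in the comparisons of allogeneic with syngeneic, allogeneic with naive and syngeneic with naive cells (edgeR adjusted p = 0.19, 0.425 and 0.608). Without allogeneic library 1 the first was -0.31 (edgeR adjusted p = 0.0403).

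**Figure D2:**
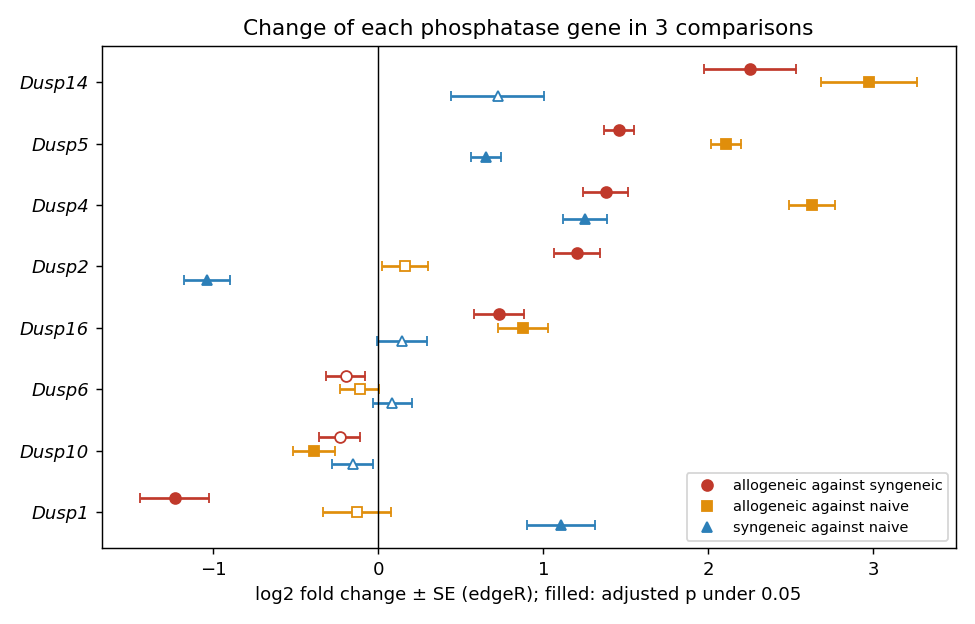
Log2 fold change of each gene (x axis) with its standard error in the 3 comparisons, filled where the edgeR adjusted p was under 0.05; circles are allogeneic against syngeneic, squares allogeneic against naive and triangles syngeneic against naive. Dusp14, Dusp5, Dusp4 and Dusp16 lie right of 0 in all 3 comparisons, and Dusp1 and Dusp2 lie on opposite sides of 0 for the circles and for the triangles.

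Levels of different genes were compared as CPM per kb of merged exon. In allogeneic cells Dusp2 led with 89.1 ± 11.1 CPM per kb, followed by Dusp5 with 72.0 ± 12.6 CPM per kb, and the ranges of these genes overlapped. Dusp1 with 21.5 ± 5.07 and Dusp10 with 21.3 ± 1.43 CPM per kb came next and overlapped too, ahead of Dusp4 with 13.7 ± 1.89, Dusp6 with 10.8 ± 0.689, Dusp14 with 2.06 ± 0.123 and Dusp16 with 1.24 ± 0.0965 CPM per kb (SD, n = 3 each). In syngeneic cells Dusp1 led with 51.4 ± 5.52 CPM per kb, then Dusp2 with 39.2 ± 2.96, Dusp5 with 26.3 ± 0.681 and Dusp10 with 25.2 ± 3.81 CPM per kb, of which Dusp5 and Dusp10 overlapped. In naive cells Dusp2 led with 82.9 ± 6.23 CPM per kb, then Dusp10 with 28.9 ± 2.95, Dusp1 with 24.6 ± 6.19 and Dusp5 with 17.2 ± 0.308 CPM per kb, of which Dusp10 and Dusp1 overlapped. Dusp6, Dusp4, Dusp16 and Dusp14 followed in that order in both the syngeneic and the naive cells, with no overlap between neighbours. Among the 13934 protein-coding genes tested, Dusp2 per kb stood at percentile 96.9 in allogeneic, 93.6 in syngeneic and 97.7 in naive cells, and Dusp5 at percentile 96.0, 89.6 and 83.6.

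As a share of the summed CPM per kb of the 8 genes, Dusp5 made up 31.1% ± 5.13 in allogeneic, 16.3% ± 0.780 in syngeneic and 10.2% ± 0.721 in naive cells. Dusp1 made up 9.24% ± 1.84, 31.9% ± 1.89 and 14.5% ± 3.17, and Dusp2 38.5% ± 4.48, 24.4% ± 1.77 and 49.1% ± 4.03 (SD, n = 3 each). The summed level of the 8 genes was 223, 248 and 224 CPM per kb in the allogeneic libraries, 167, 169 and 148 CPM per kb in the syngeneic libraries and 179.6, 166 and 162 CPM per kb in the naive libraries. The allogeneic libraries were the 3 highest, and the syngeneic and naive ranges overlapped.

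**Figure D3:**
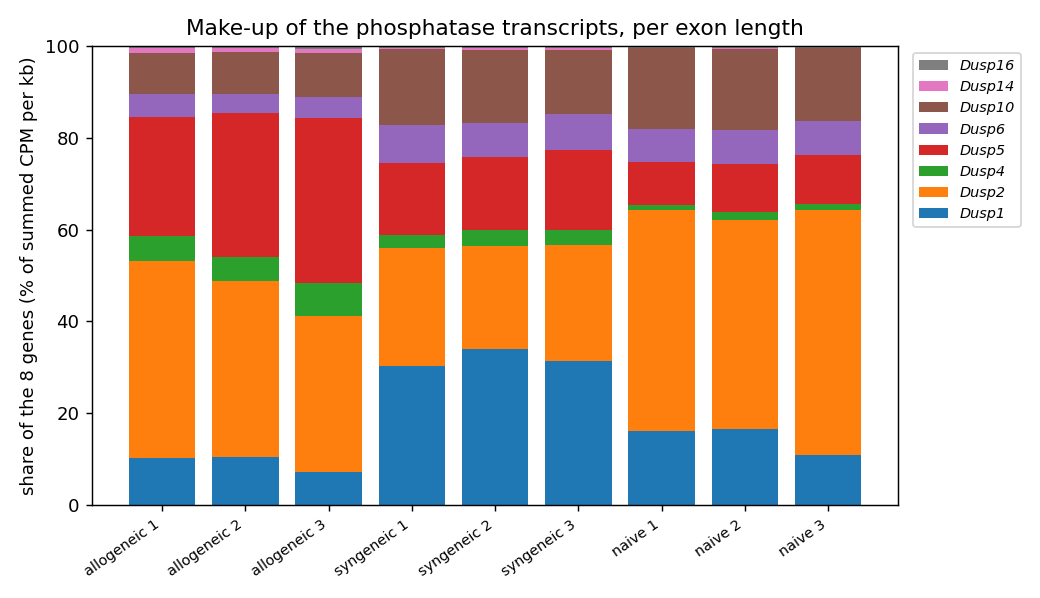
Share of each gene in the summed CPM per kb of the 8 genes (y axis, percent), 1 bar per library. The Dusp1 segment is largest in the 3 syngeneic libraries, the Dusp5 segment in the 3 allogeneic libraries and the Dusp2 segment in the 3 naive libraries.

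The genes closest in pattern to each phosphatase were taken as those with the smallest root mean square difference in mean-centred log2 CPM over the 9 libraries, among 12944 genes with a mean of at least 1 CPM. They were Kctd17 (0.0569) and Gnptab (0.0989) for Dusp5, Zdhhc2 (0.142) and Stx11 (0.153) for Dusp4, and Abhd6 (0.114) and Cd4 (0.124) for Dusp2. Dusp16 was closest to Ifih1 (0.118) and Sept2 (0.119), Dusp10 to Armcx5 (0.0808) and Fastkd5 (0.101), and Dusp6 to Ddx56 (0.0715) and Nufip1 (0.0725). Dusp1 and Dusp14 had no gene as near, with Gm37660 (0.174) and Plk2 (0.209) for Dusp1 and Lancl3 (0.201) and Rab39b (0.202) for Dusp14. Among the 8 genes themselves the closest pairs were Dusp6 with Dusp10 (0.170), Dusp4 with Dusp5 (0.322) and Dusp4 with Dusp14 (0.431). All these distances rest on the same 9 libraries.

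A further 18 genes of the family were listed, of which 16 were in the table and 14 were tested. Between allogeneic and syngeneic cells 7 of the 14 were called, 5 higher and 2 lower. Between allogeneic and naive cells 9 were called, 5 higher and 4 lower, and between syngeneic and naive cells 9 were called, 4 higher and 5 lower. The shares called over all tested genes were 45.0%, 57.7% and 41.9% in these comparisons, and 7 of 14 is near the first. The median log2 fold changes of the 14 were 0.21, 0.10 and -0.23. Dusp3, an atypical phosphatase of ERK and JNK, had the group order of Dusp4 and Dusp5, with 8.70 ± 0.966 CPM in allogeneic, 1.33 ± 0.562 CPM in syngeneic and 0.394 ± 0.162 CPM in naive cells (SD, n = 3 each). Its log2 fold change was 2.74 ± 0.33 between allogeneic and syngeneic cells (edgeR adjusted p = 5.83e-05) and 4.51 ± 0.37 between allogeneic and naive cells (edgeR adjusted p = 1.15e-06). Dusp22, known for dephosphorylating the kinase Lck, averaged 4.76 ± 0.669 CPM in allogeneic, 1.64 ± 0.232 CPM in syngeneic and 2.60 ± 0.245 CPM in naive cells, and rose by 1.55 ± 0.18 on the log2 scale between allogeneic and syngeneic cells (edgeR adjusted p = 3.93e-05).

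Dusp7, a cytoplasmic ERK phosphatase related to Dusp6, averaged 96.8 ± 13.3 CPM in allogeneic, 69.1 ± 6.51 CPM in syngeneic and 114 ± 7.78 CPM in naive cells. Its log2 fold change was 0.49 ± 0.11 between allogeneic and syngeneic cells (edgeR adjusted p = 0.00471) and -0.68 ± 0.11 between syngeneic and naive cells (edgeR adjusted p = 0.000635), the signs of Dusp2. Dusp18 averaged 1.5 ± 0.227 CPM in allogeneic and 1.40 ± 0.196 CPM in syngeneic cells, against 0.265 ± 0.00503 CPM in naive cells, with log2 fold changes of 2.54 ± 0.23 and 2.44 ± 0.23 over naive cells (edgeR adjusted p = 3.02e-06 and 1.02e-05). Dusp9, another ERK phosphatase, rose over naive cells as well, by 2.25 ± 0.39 in allogeneic and 1.84 ± 0.39 in syngeneic cells on the log2 scale (edgeR adjusted p = 0.00047 and 0.00292). Dusp11, an RNA phosphatase, and Styx, which lacks catalytic activity, passed no test. Dusp23, Dusp12 and Styxl1 were lower in syngeneic than in naive cells, with log2 fold changes of -1.14 ± 0.19, -0.49 ± 0.13 and -1.45 ± 0.33 (edgeR adjusted p = 0.00054, 0.00867 and 0.0043). They were also lower in allogeneic than in naive cells, with -0.54 ± 0.19, -0.32 ± 0.13 and -1.43 ± 0.33 (edgeR adjusted p = 0.0269, 0.048 and 0.00283). Dusp13 rested on 14, 51 and 41 counts over the allogeneic, syngeneic and naive libraries. Calls of Dusp8, Dusp12, Dusp13, Dusp19, Dusp22 and Dusp23 were lost in at least 1 comparison when single libraries were left out.

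Dusp8, a phosphatase of JNK and p38, had the widest range. It had 0.322, 0.272 and 0.337 CPM in the allogeneic libraries, 3.91, 13.6 and 11.6 CPM in the syngeneic libraries and 0.145, 0.106 and 0.0436 CPM in the naive libraries. It was -4.93 ± 0.45 on the log2 scale between allogeneic and syngeneic cells (edgeR adjusted p = 7.57e-06) and 6.6 ± 0.51 between syngeneic and naive cells (edgeR adjusted p = 2.02e-06). The erythroid marker sum of the syngeneic libraries was 2225, 5707 and 4888 CPM and their macrophage and monocyte sum 49.9, 192 and 186 CPM, in the same library order as Dusp8. Alas2, the erythroid haem synthesis enzyme, averaged 0.757, 286 and 0.0975 CPM in allogeneic, syngeneic and naive cells. The part of these cells in the Dusp8 result was not tested.

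**Figure D4:**
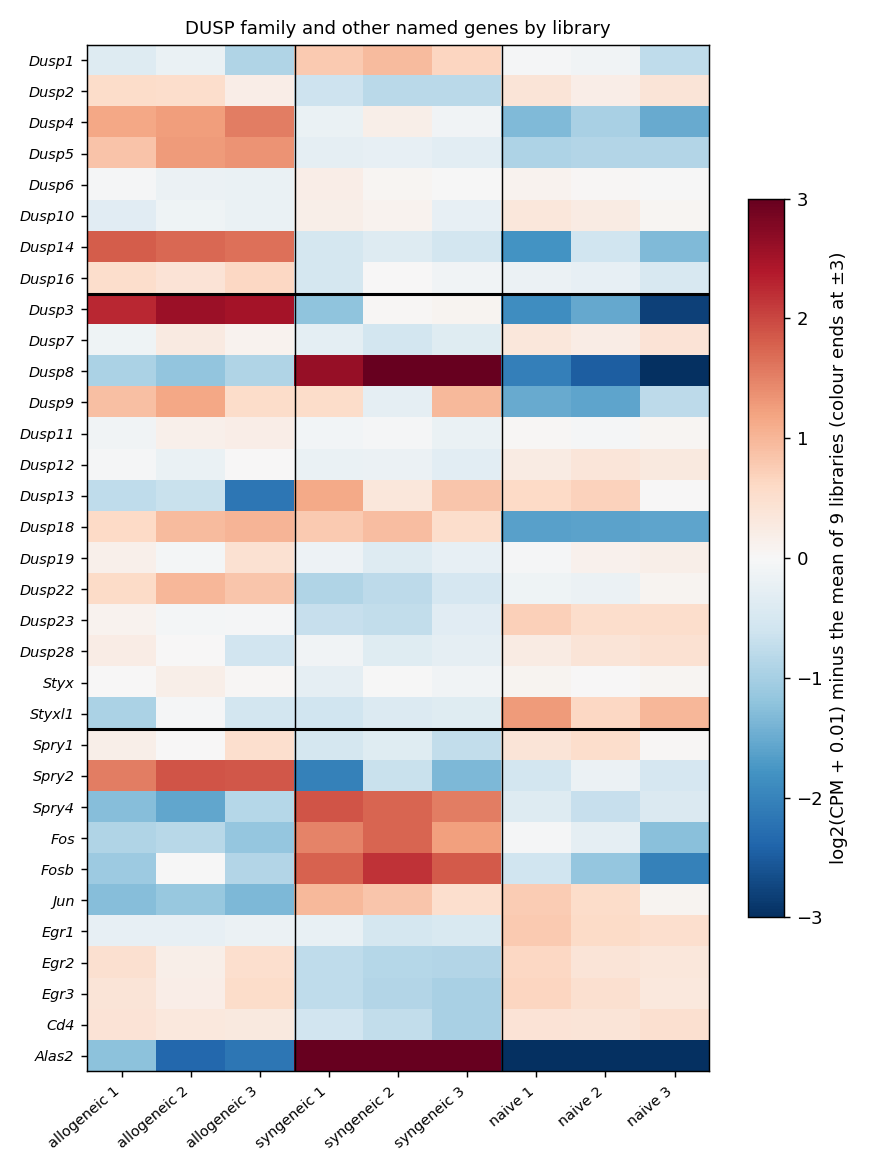
Heat map of log2(CPM + 0.01) of each gene minus its mean over the 9 libraries, with colour ending at ±3; columns are libraries, the top 8 rows are the genes of the report, the next 14 other family members and the last 11 other genes named in the text. Dusp3, Dusp4, Dusp5 and Dusp14 are red in the 3 allogeneic columns, and Dusp1, Dusp8, Spry4, Fos, Fosb and Alas2 are red in the 3 syngeneic columns.

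Of the kinases that these phosphatases act on, Mapk3, Mapk8 and Mapk14 had log2 fold changes between -0.97 and 0.47 in the 3 comparisons. Mapk3, which encodes an ERK kinase, averaged 63.4, 46.6 and 47.4 CPM in allogeneic, syngeneic and naive cells, and its log2 fold change between allogeneic and syngeneic cells was 0.46 ± 0.08 (edgeR adjusted p = 0.00104). Mapk8, a JNK kinase, averaged 9.88 ± 0.629 CPM in allogeneic, 17.1 ± 1.6 CPM in syngeneic and 20.1 ± 1.21 CPM in naive cells (SD, n = 3 each) and fell by 0.78 ± 0.10 on the log2 scale between allogeneic and syngeneic cells (edgeR adjusted p = 0.000118). Mapk14, a p38 kinase, had a log2 fold change of -0.09 there (edgeR adjusted p = 0.337).

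Of 22 tested genes of the cascade leading to ERK, 10 were higher and 5 lower in allogeneic than in syngeneic cells, with a median log2 fold change of 0.20. The numbers were 10 and 6 between allogeneic and naive cells and 1 and 7 between syngeneic and naive cells, where 3 were called without syngeneic library 3. In all, 15, 16 and 8 of the 22 were called, where 45.0%, 57.7% and 41.9% of all tested genes were. Ksr1, a scaffold of the cascade, averaged 151 ± 21.6 CPM in allogeneic, 51.4 ± 1.80 CPM in syngeneic and 41.6 ± 1.56 CPM in naive cells. Ksr2, its paralogue, ran the other way with 1.07 ± 0.287, 3.50 ± 0.632 and 16.7 ± 0.804 CPM (SD, n = 3 each). Hras rose by 0.60 ± 0.13 and Rasa3, a Ras GTPase-activating protein, by 0.57 ± 0.12 between allogeneic and syngeneic cells, while Rasgrp1, which activates Ras below the antigen receptor, fell by 0.34 ± 0.10 and Braf by 0.33 ± 0.09 on the log2 scale (edgeR adjusted p = 0.0031, 0.00243, 0.0166 and 0.0145). Rasgrp1 averaged 225 and 286 CPM in allogeneic and syngeneic cells, against 496 CPM in naive cells.

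Of 25 tested genes of the JNK and p38 cascades, 9 were higher and 6 lower in allogeneic than in syngeneic cells, with a median log2 fold change of 0.09. Between allogeneic and naive cells 9 were higher and 11 lower, and between syngeneic and naive cells 7 and 9. These make 15, 20 and 16 of the 25 (over all tested genes, 45.0%, 57.7% and 41.9%). The p38-activated kinases Mapkapk2 and Mapkapk3 rose by 0.92 ± 0.09 and 0.94 ± 0.08 between allogeneic and syngeneic cells (edgeR adjusted p = 1.5e-05 and 5.99e-06). Map2k3, a p38 kinase kinase, averaged 107 ± 1.69 CPM in allogeneic, 63.0 ± 11.8 CPM in syngeneic and 31.4 ± 1.85 CPM in naive cells. Map2k6, which acts at the same step, averaged 5.52 ± 0.264, 8.01 ± 0.511 and 13.2 ± 0.985 CPM (SD, n = 3 each). Gadd45b rose by 0.91 ± 0.11 and Gadd45a, a stress-induced relative, fell by 2.38 ± 0.24 between allogeneic and syngeneic cells (edgeR adjusted p = 5.98e-05 and 1.5e-05). Mapk13 had 805, 692 and 4 counts over the allogeneic, syngeneic and naive libraries.

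Of 18 tested genes of other negative feedback on MAPK signalling or of growth factor response, 9 were higher and 5 lower in allogeneic than in syngeneic cells, with a median log2 fold change of 0.47. Between allogeneic and naive cells 8 were higher and 5 lower, and between syngeneic and naive cells 6 and 4. These make 14, 13 and 10 of the 18 (over all tested genes, 45.0%, 57.7% and 41.9%). The Sprouty genes, whose products restrain the pathway to ERK, differed from each other. Spry2 averaged 17.5 ± 2.23 CPM in allogeneic, 2.16 ± 0.986 CPM in syngeneic and 3.89 ± 0.584 CPM in naive cells. Spry4 averaged 0.286 ± 0.0735 CPM in allogeneic, 2.25 ± 0.258 CPM in syngeneic and 0.475 ± 0.0530 CPM in naive cells (SD, n = 3 each). The log2 fold change between allogeneic and syngeneic cells was 3.04 ± 0.26 for Spry2 and -2.98 ± 0.27 for Spry4 (edgeR adjusted p = 4.35e-06 and 6.81e-06). Errfi1, an inhibitor of the EGF receptor family, averaged 44.7 ± 6.35, 18.8 ± 0.722 and 9.18 ± 0.186 CPM in allogeneic, syngeneic and naive cells, the order of Dusp4 and Dusp5. Zfp36, which speeds the decay of AU-rich mRNAs, fell by 1.36 ± 0.13 between allogeneic and syngeneic cells (edgeR adjusted p = 1.01e-05), as Dusp1 did. Ptpn7, a tyrosine phosphatase of MAPKs in blood cells, rose by 0.80 ± 0.09 between allogeneic and syngeneic cells (edgeR adjusted p = 4.6e-05).

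Of 23 tested transcription factors and other genes downstream of MAPKs, 5 were higher and 8 lower in allogeneic than in syngeneic cells. Their median log2 fold change was -0.09. The list holds Srf, Elk1, Elk3 and Elk4 beside induced genes such as Fos. Between allogeneic and naive cells 6 were higher and 9 lower, and between syngeneic and naive cells 9 and 8. These make 13, 15 and 17 of the 23 (over all tested genes, 45.0%, 57.7% and 41.9%). Fosb averaged 31.3 ± 13.5 CPM in allogeneic, 179 ± 26.5 CPM in syngeneic and 21 ± 9.61 CPM in naive cells (SD, n = 3 each), the shape of Fos and Dusp1. Jun averaged 52.6 ± 4.12 CPM in allogeneic and 216 ± 35.3 CPM in syngeneic cells, against 176 ± 40.2 CPM in naive cells, so it stood apart from Dusp1 in the naive cells. Egr1 averaged 56.3 ± 1.59, 49.7 ± 5.48 and 101 ± 9.85 CPM in allogeneic, syngeneic and naive cells, and its log2 fold change between allogeneic and syngeneic cells was 0.19 (edgeR adjusted p = 0.207), or 0.34 without syngeneic library 1 (edgeR adjusted p = 0.017). Nr4a2, a nuclear receptor induced by antigen receptor signalling, averaged 26.4 ± 3.98, 13.5 ± 3.37 and 5.07 ± 1.17 CPM, in the order of Dusp4 and Dusp5.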

How the data were processed

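RNA-seq libraries were made by the submitters with a stranded, rRNA-depleting kit from 100 ng of total RNA, per the labels' protocols. The authors deposited raw counts of reads per Ensembl gene; the submitters' processing notes name GRCm38, HTSeq 0.6.1, Bowtie2 2.2.1, TopHat2 2.0.13 and FastQC 0.11.3. Which annotation release and strand setting the counting used, and how duplicate reads were handled, is not given in these sources. No molecular identifiers are named, so counting error is only a lower limit of error.

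Symbols, coordinates and merged exon lengths (all transcripts of a gene) came from GENCODE M21, which matched 29014 of 29229 identifiers. CPM was computed over the column total, which includes Gm26917 and Gm42418, loci with ribosomal sequence that took 7.87 to 22.4% of counts. Tests used edgeR 4.0.16 in R 4.3.3 (TMM scaling, filterByExpr by group, quasi-likelihood test, group as the only term), and SE is the log2 fold change divided by the square root of F. Alternatives used limma 3.58.1 and DESeq2 1.42.0, other scalings and filters, and libraries left out in turn. The fit was checked on simulated counts. The chi-square per degree of freedom between libraries of a group was 22.5 to 362, so no library was a copy.

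The 8 genes and all lists were chosen with earlier results of these data known. Named were the 8 genes, the other tested family members, and from each list the 3 called genes with the largest change in each direction and comparison, with a mean of at least 1 CPM, of which the text gives some. In addition Mapk3, Mapk8, Mapk14, Fos, Egr1, Spry1 and Ptpn7 were always eligible (some genes under these rules are not reported here), and for each of the 8 genes the 2 most similar genes were named. Cd3d, Cd3e, Cd3g, Trac, Cd5, Cd8a, Cd8b1 and Alas2 are markers, and Jun, Cd4, Egr2 and Egr3 levels were set beside the phosphatases after their values were seen.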

Additional observations from a re-analysis of the deposited data

Results flagged for a closer look

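The change against naive cells differed between allogeneic and syngeneic cells for 6 of the 8 phosphatase genes and for 7 of the 14 other family members tested. The test of that difference is the direct comparison of allogeneic with syngeneic cells by edgeR, since the naive libraries cancel. These are thus the genes already called in that comparison above. There 45.0% of all tested genes were called, and 7 of 14 is near that share.

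Dusp14 differed by 2.25 on the log2 scale, with changes against naive cells of 2.98 in allogeneic and 0.72 in syngeneic cells. Dusp5 differed by 1.46 (2.11 in allogeneic and 0.65 in syngeneic cells), Dusp4 by 1.38 (2.63 and 1.25) and Dusp16 by 0.73 (0.88 and 0.14). For Dusp2 the difference was 1.20, made of 0.16 in allogeneic and -1.04 in syngeneic cells, and for Dusp1 it was -1.23, made of -0.13 in allogeneic and 1.11 in syngeneic cells.

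Among the other family members, Dusp3 differed by 2.74 (4.51 in allogeneic and 1.77 in syngeneic cells against naive), Dusp22 by 1.55 (0.92 and -0.63), Dusp23 by 0.60 (-0.54 and -1.14), Dusp7 by 0.49 (-0.18 and -0.68) and Dusp19 by 0.47 (0.16 and -0.31). Dusp8 differed by -4.93 (1.67 and 6.6) and Dusp13, at 14 to 51 counts per group, by -2.05 (-1.62 and 0.43). Dusp22 had opposite signs in the 2 transplant groups, and both of its changes against naive cells passed the test (edgeR adjusted p = 0.000828 in allogeneic and 0.0134 in syngeneic cells, where it was 0.0525 without naive library 3). Groups of 3 libraries were too small for a check of single libraries against their group.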

How the results depend on the processing

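Of 432 recomputed values of the 8 genes, 424 kept their direction and side of the threshold, 4 passed it anew, 1 lost it and 3 turned sign; for the other family members the numbers were 713 of 755, with 8, 28 and 6. The number of the 8 genes called was 6 to 7 between allogeneic and syngeneic cells and 4 to 5 in each comparison with naive cells without single libraries. Among all tested genes 6930 to 9123 were then called between allogeneic and syngeneic cells. The numbers were 9881 to 11802 between allogeneic and naive cells and 6347 to 9019 between syngeneic and naive cells. The replicate numbers did not pair the samples (correlation of deviations -0.118 to 0.265 for equal numbers, -0.252 to 0.185 for others); with a replicate block 6, 5 and 4 of the 8 genes, 7, 8 and 9 other family members and 8669, 11226 and 8034 of all genes were called. Signs turned for Dusp1 between allogeneic and naive cells (0.016 without naive replicate 1, 0.00207 without allogeneic replicate 3) and for Dusp6 between syngeneic and naive cells (-0.0263 without syngeneic replicate 1); without single libraries these values reached -0.306 and 0.154. Between allogeneic and syngeneic cells they turned for Dusp18 (-0.0117 to 0.178), Dusp28 (-0.0417 to 0.395) and Styxl1 (-0.252 to 0.17, with -0.0138 in between) without single libraries, and for Styxl1 also without Gm26917 and Gm42418 (-0.00362) and without erythroid genes as well (-0.00349). Uncalled values also turned for Spry1 (-0.201 to 0.0968) and Cd4 (-0.129 to 0.0248) between allogeneic and naive cells, and between syngeneic and naive cells for Ptpn7 (-0.127 to 0.0178) and Mapk3 (-0.0228 with library size scaling, -0.000539 without Gm26917 and Gm42418, -0.00594 with no filter, -0.0104 with only these groups, -0.0442 to 0.0447 without single libraries). Dusp14 was called between syngeneic and naive cells by DESeq2 (adjusted p = 0.0255), and Dusp8 was lost between allogeneic and naive cells by limma-voom (adjusted p = 0.196). Rasgrp1 was lost without syngeneic replicate 1 (adjusted p = 0.0565) and Braf without syngeneic replicate 2 (adjusted p = 0.0602). Between syngeneic and naive cells 3 genes of the ERK cascade were called without syngeneic replicate 3, against 8. CPM over totals without Gm26917 and Gm42418, an alternative chosen after seeing the data, was 1.12 to 1.27 times higher, as the totals were smaller. This alternative moved 19 of the 24 group means of the 8 genes by more than 1 SD. With it the Dusp10 ranges no longer overlapped between allogeneic and syngeneic cells, and the Dusp6 ranges came to overlap between allogeneic and naive cells. Why the share of these loci differed between libraries was not tested. Depth is low for Mapk13 and Dusp8 in naive cells (4 and 37 counts over the group), for Dusp13 (14 to 51 counts per group) and for Dusp14.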

Other observations

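A list of 20 phosphatases of other classes expressed in T cells was tested. Of these, 15 were higher and 3 lower in allogeneic than in syngeneic cells (median log2 fold change 0.44), and 15 were higher and 2 lower in allogeneic than in naive cells (median 0.56), while 4 were higher and 4 lower in syngeneic than in naive cells (median 0.03). Over all tested genes 24.3% were higher and 20.7% lower, 31.8% and 25.9%, and 22.4% and 19.5% in these comparisons, and the difference between the list and all genes was not tested. Ptprj, a receptor tyrosine phosphatase, averaged 198 ± 30.9 CPM in allogeneic, 25.9 ± 9.26 CPM in syngeneic and 12.5 ± 1.93 CPM in naive cells (SD, n = 3 each). Ubash3b, which restrains antigen receptor signalling, averaged 152 ± 14.6, 45.4 ± 1.18 and 68.0 ± 2.44 CPM, and Ptpn11, a tyrosine phosphatase that promotes signalling to ERK, 338 ± 39.8, 122 ± 7.26 and 125 ± 3.38 CPM in the same groups.

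The cell cycle phosphatases Cdc25a and Cdc25b split. Cdc25b averaged 314 ± 35.9 CPM in allogeneic, 178 ± 36.0 CPM in syngeneic and 77.9 ± 3.66 CPM in naive cells, whereas Cdc25a was highest in syngeneic cells, with 43.6 ± 6.08, 56.6 ± 5.60 and 28.3 ± 0.645 CPM (SD, n = 3 each). Ppm1b fell by 0.31 ± 0.07 on the log2 scale between allogeneic and syngeneic cells (edgeR adjusted p = 0.00508).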
